A study of Mus musculus with 48 samples.

Results

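Nucleolar ribosome biogenesis factors are the proteins and protein partners of small RNAs that turn the ribosomal RNA precursor into the 2 ribosomal subunits, and the mRNAs of 58 of them were followed here in mouse pancreatic cancer cells treated with N6L. The 58 genes were taken by name as members of the small nucleolar ribonucleoprotein (snoRNP) core, the small-subunit processome, the late small-subunit assembly factors, the PeBoW complex and the other large-subunit assembly factors, out of 50600 genes in the count tables. A count entry was matched for 57 of them, and all 57 passed the filter on low counts, among 13889 genes tested. Riok2, a kinase of late small-subunit maturation, was not analysed here.

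The cells were mPDAC, a murine pancreatic ductal adenocarcinoma line that the labels describe as of mixed FVB/N and C57BL6 background from 8-week-old animals. N6L is a synthetic pseudopeptide that binds nucleolin, an abundant nucleolar protein. N6L-treated cultures received 50 µM for 48 h and non-treated (NT) cultures received none. From each of 3 N6L and 3 NT cultures, cytoplasmic RNA and pooled polysomal RNA from a sucrose gradient were sequenced after poly(A) selection, which gave 12 libraries in 4 groups of 3. All cultures were of 1 cell line, so the spread measured here is that between cultures.

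Ribosome production starts in the nucleolus, where the precursor RNA is transcribed, modified and cut while ribosomal proteins join it. H/ACA snoRNPs guide pseudouridylation and box C/D snoRNPs guide methylation of ribose, the small-subunit processome folds and cleaves the part that becomes the 18S RNA, and a separate series of scaffolds, GTPases and ATPases shapes the large subunit. The genes of this pathway are known as shared targets of Myc, which binds the E-box letters CACGTG, and are usually high in proliferating cells.

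The E-box was therefore looked up in the RefSeq promoter windows (GRCm38.p6, 250 bases before to 50 bases after the gene start). A window was matched for 51 of the 57 tested members and 12 of these, or 23.5%, held CACGTG, against 11.6% of 10092 tested genes with a window. CACGTG reads the same on both strands, so a single search covers both. The stretches around the motif are shown for 5 members named below, so that the letters can be read in their setting, 5′ to 3′ on the strand of the gene, with the motif in capitals.
Nop2: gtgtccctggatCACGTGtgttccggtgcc
Pes1: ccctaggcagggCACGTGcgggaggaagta
Nle1: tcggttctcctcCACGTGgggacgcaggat
Mdn1: gaattccttcacCACGTGtgtgtc
Utp20: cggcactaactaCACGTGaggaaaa
These lie at chr6:125131811-125131840 on the plus strand (Nop2), chr11:3963965-3963994 on the plus strand (Pes1), chr11:82908355-82908384 on the minus strand (Nle1), chr4:32657145-32657168 on the plus strand (Mdn1) and chr10:88826765-88826789 on the minus strand (Utp20). The other 7 members with the motif were Imp4, Ltv1, Sdad1, Tsr1, Utp18, Utp4 and Wdr43. A match of letters is a description of the window and says nothing about binding in these cells.

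Library totals ran from 19519911 to 44972333 counts, and the lowest count of any tested member in any library was 148. Levels are given in CPM, counts scaled to a common library size. Of the 7 ductal or epithelial markers 6 reached at least 1 CPM in some library, with Krt18 between 2688 and 4503 CPM, while Epcam stayed at or below 0.301 CPM and the acinar markers Cpa1, Prss1 and Cela2a were at 0. The summed levels of the fibroblast and of the endothelial markers stayed at or below 1.18 and 1.03 CPM in every library, and that of the leukocyte markers at or below 3.71 CPM. In the N6L-treated cultures, the log2 ratio of polysomes to cytoplasm spread more widely over all genes in culture 3 (SD 1.04) than in culture 2 (SD 0.687) and culture 1 (SD 0.532), the NT cultures lying between 0.477 and 0.506. All CPM values were scaled by trimmed mean of M values (TMM) and are relative within a library, so a loss of total mRNA or of total polysomes does not show in them, and fewer cells with a transcript cannot be told apart from less of it per cell.

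Together the 57 mRNAs made up 0.670% to 0.738% of the counts in the NT cytoplasm and 0.644% to 0.664% in the N6L cytoplasm. In polysomes they made up 0.667% to 0.700% of the counts in NT cultures and 0.634%, 0.566% and 0.509% in N6L cultures 1, 2 and 3. All 3 N6L values lay below all 3 NT values in each fraction. Per kilobase of transcript, the mean NT cytoplasmic level was highest for Nhp2 (265 CPM per kb), Emg1 (234 CPM per kb) and Nop58 (202 CPM per kb), and lowest for Urb1 and Mdn1 (both near 1.91 to 1.92 CPM per kb).

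The first comparison asked how the cytoplasmic level of these mRNAs differed between N6L-treated and NT cells. With N6L, 15 of the 57 members were lower and 0 were higher at an adjusted p under 0.05 (edgeR quasi-likelihood test, adjusted over 13889 genes). Over all genes 13.8% were called lower and 14.5% higher, against 26.3% and 0.0% of the members. The median log2 change of the members was -0.20, with 38 below 0 and 19 above, beside 0.04 over all genes. All N6L cultures lay below all NT cultures for 28 members and above for 10, or 49.1% and 17.5%, which was the case for 25.6% and 29.3% of all genes.

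Of the H/ACA core 3 of 4 members were lower, and Nhp2 and Gar1 had the largest falls of the 57. The 4 proteins form the particle that pseudouridylates ribosomal RNA, Dkc1 being the catalytic subunit and Nhp2, Nop10 and Gar1 its partners, and Dkc1 with the same partners also stabilises telomerase RNA. Nhp2 (ENSMUSG00000001056, GRCm38 chr11:51619735-51623714) was at 243, 227 and 360 CPM in NT cultures 1, 2 and 4 and at 112, 101 and 117 CPM in N6L cultures 1, 2 and 3. The groups did not overlap, and the log2 change was -1.33 ± 0.23 (SE, n = 3 cultures each, edgeR adjusted p = 0.00236).

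Gar1 was at 112, 106 and 178 CPM in NT and at 62.6, 69.2 and 75.4 CPM in N6L cultures. It fell by 0.93 on the log2 scale (± 0.22 SE, edgeR adjusted p = 0.00853). Nop10 was at 142, 134 and 237 CPM in NT and at 87.8, 90.6 and 101 CPM in N6L cultures, a fall of the same order (log2 change -0.88 ± 0.24, edgeR adjusted p = 0.0179). For all 3 partners the highest NT value was that of culture 4, and each N6L culture still lay below the lowest NT culture. Nop10 was no longer called without N6L culture 1, without N6L culture 2, or with transcript length and GC content entered as offsets. Nhp2 and Gar1 were called whichever culture was left out and with these offsets.

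Dkc1 (chrX:75095854-75109777) went the other way in value. It was at 84.3, 120 and 98.6 CPM in NT and at 120, 135 and 127 CPM in N6L cultures, a log2 change of 0.34 ± 0.26 that did not pass the test (edgeR adjusted p = 0.338). The N6L values lay just above the highest NT value. The deposited counting does not state whether strand was used. Dkc1, Nhp2, Nop56, Rrp9, Emg1, Bop1 and Wdr12 each share bases with a gene on the opposite strand that had counts of its own. The same holds for Bysl, Gnl3, Heatr1, Riok1, Rrp1b and Tsr1. For some other members such a gene had few counts.

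**Figure D1:**
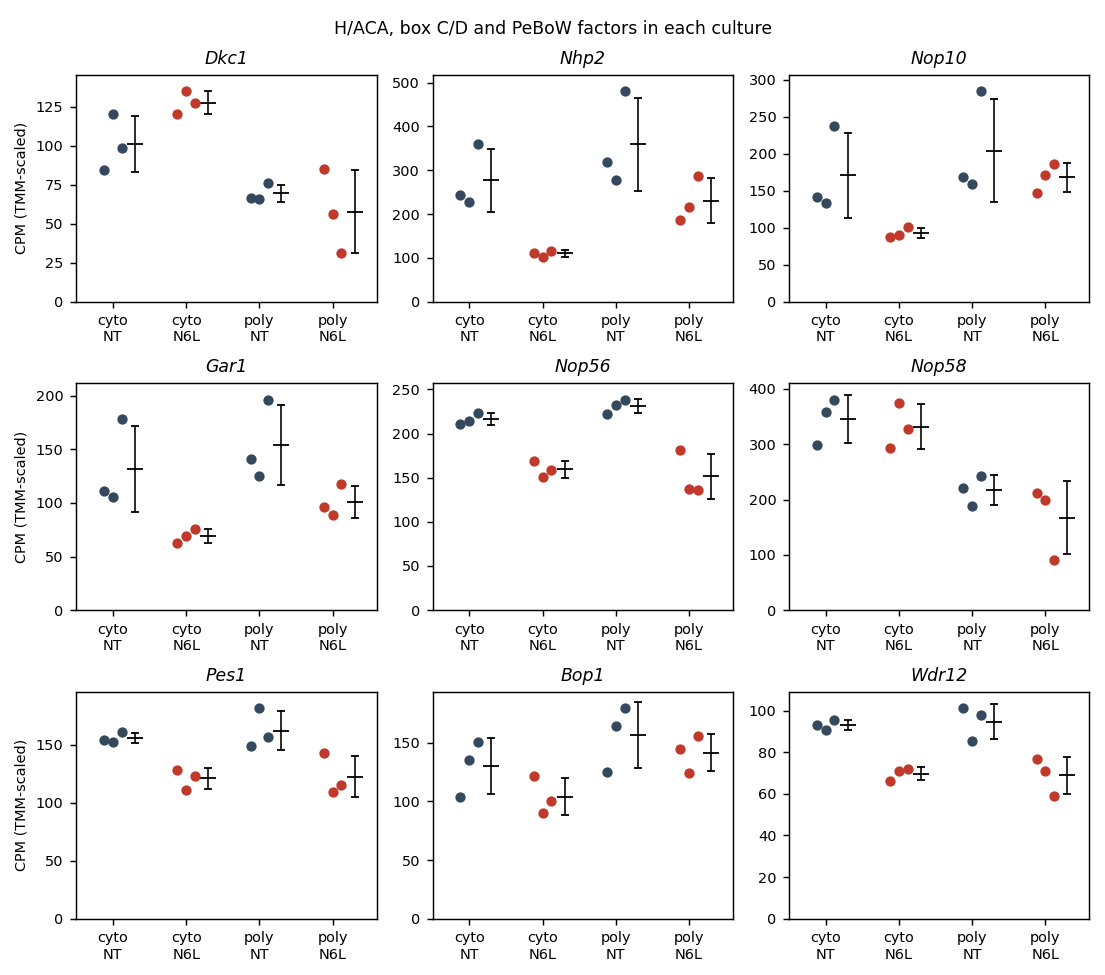
TMM-scaled CPM (y axis, from 0) of 9 snoRNP and PeBoW mRNAs in the cytoplasm (cyto) and polysomes (poly) of NT (dark blue) and N6L-treated (red) cultures; each point is a culture, drawn in the order 1, 2, 4 for NT and 1, 2, 3 for N6L, and the bar is the mean ± SD (n = 3). The cytoplasmic N6L points of Nhp2, Nop10, Gar1, Nop56, Pes1 and Wdr12 lie below all NT points, while those of Dkc1 lie above them.

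Among the box C/D factors, Rrp9, a U3-specific protein, was at 94.7, 106 and 137 CPM in NT and at 60.5, 55.9 and 61.8 CPM in N6L cultures, a log2 change of -0.92 ± 0.24 (edgeR adjusted p = 0.0136). Nop56, a core scaffold of the particle, was at 211, 214 and 224 CPM in NT and at 169, 150 and 159 CPM in N6L cultures. It fell by 0.44 on the log2 scale (edgeR adjusted p = 0.0344), with groups apart. Its partner Nop58 was at 298, 359 and 380 CPM in NT and at 294, 374 and 327 CPM in N6L cultures, so that the groups overlapped (log2 change -0.06 ± 0.25), and the sign of this value was positive when libraries were scaled by their size alone (0.09). Nolc1, a chaperone of both snoRNP kinds, had a log2 change of -0.30 that did not pass.

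None of the 5 UTP-A proteins, which bind the precursor first and link its transcription to processing, passed the cytoplasmic test. Their changes ran from -0.08 for Utp4 to 0.37 for Heatr1, with Utp15, Wdr43 and Wdr75 between. Of the 12 other processome proteins 3 were lower, namely Imp3 (-0.90 ± 0.19, edgeR adjusted p = 0.00537), Emg1 (-0.59) and Noc4l (-0.46). Imp3 belongs to the U3-associated Mpp10 complex and Emg1 is a methyltransferase of 18S RNA. Imp3 was at 133, 119 and 158 CPM in NT and at 71.8, 73.2 and 74.5 CPM in N6L cultures, with no overlap. Imp4 and Mphosph10, the other members of the Mpp10 complex, had changes of -0.04 and -0.08.

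Utp3, Utp6, Utp14a, Utp18, Nop14, Nat10 and Utp20 were not called in the cytoplasm. Utp20, a long scaffold of the processome, was at 38.5, 47.7 and 39.3 CPM in NT and at 57.3, 56.7 and 53.8 CPM in N6L cultures, one of the 3 highest changes (0.42 ± 0.28). The N6L cultures were all higher, but the change did not pass (edgeR adjusted p = 0.264) and turned to -0.10 when transcript length and GC content were entered as offsets. None of the 6 late small-subunit factors tested was called, their changes running from -0.41 for Bysl to 0.31 for Tsr1, with Nob1, Ltv1, Riok1 and Rrp12 between.

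The PeBoW complex of Pes1, Bop1 and Wdr12 is needed to process the precursors of the large-subunit RNAs. Wdr12 was at 92.9, 90.6 and 95.5 CPM in NT and at 66.1, 70.8 and 72.0 CPM in N6L cultures, a log2 change of -0.42 ± 0.14 (edgeR adjusted p = 0.0388). Pes1 was at 154, 153 and 161 CPM in NT and at 129, 111 and 123 CPM in N6L cultures, with no overlap and a change of -0.37 that missed the threshold (edgeR adjusted p = 0.0707). Bop1, at 104, 136 and 151 CPM in NT and at 122, 90.4 and 100 CPM in N6L cultures, overlapped between groups (-0.32 ± 0.19).

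Of the 17 other large-subunit assembly factors 6 were lower in the cytoplasm. These were Mrto4 (-0.81), a placeholder for a stalk protein, Ebna1bp2 (-0.77), Ppan (-0.69), Nle1 (-0.67), Noc2l (-0.57) and Nip7 (-0.54). Nle1 was the single member with a promoter E-box among the 15 called. The 11 not called were Nop2, Nop16, Rrp1, Rrp1b, Rrs1, Brix1, Noc3l, Las1l, Sdad1, Urb1 and Urb2. None of the 6 GTPases and AAA ATPases was called, and 4 of them had values above 0.

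Gnl3l, a GTPase of the nucleostemin family, had the highest cytoplasmic value. It was at 80.4, 65.6 and 45.2 CPM in NT and at 105, 100 and 88.8 CPM in N6L cultures, a log2 change of 0.62 ± 0.25 (edgeR adjusted p = 0.0730). Urb1 came next at 13.7, 16.6 and 11.97 CPM in NT and 24.9, 16.6 and 17.4 CPM in N6L cultures (0.48 ± 0.28). In both the N6L cultures were on the high side, without overlap for Gnl3l and with overlap for Urb1.

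Fitted on the 6 cytoplasmic libraries alone, 22 members were lower and 3 higher (Gnl3l, Utp20 and Nvl). Gnl3l was also called higher when low counts were kept and with culture number as replicate block, which rests on cultures 1 and 2. The count fell to 9, 7 and 4 members without NT culture 2, NT culture 4 and N6L culture 2. Nhp2, Gar1, Imp3 and Ebna1bp2 were called in all 16 alternative fits, where their smallest falls were by 0.87, 0.47, 0.39 and 0.62 on the log2 scale, and the other 11 in 7 to 14 of them.

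**Figure D2:**
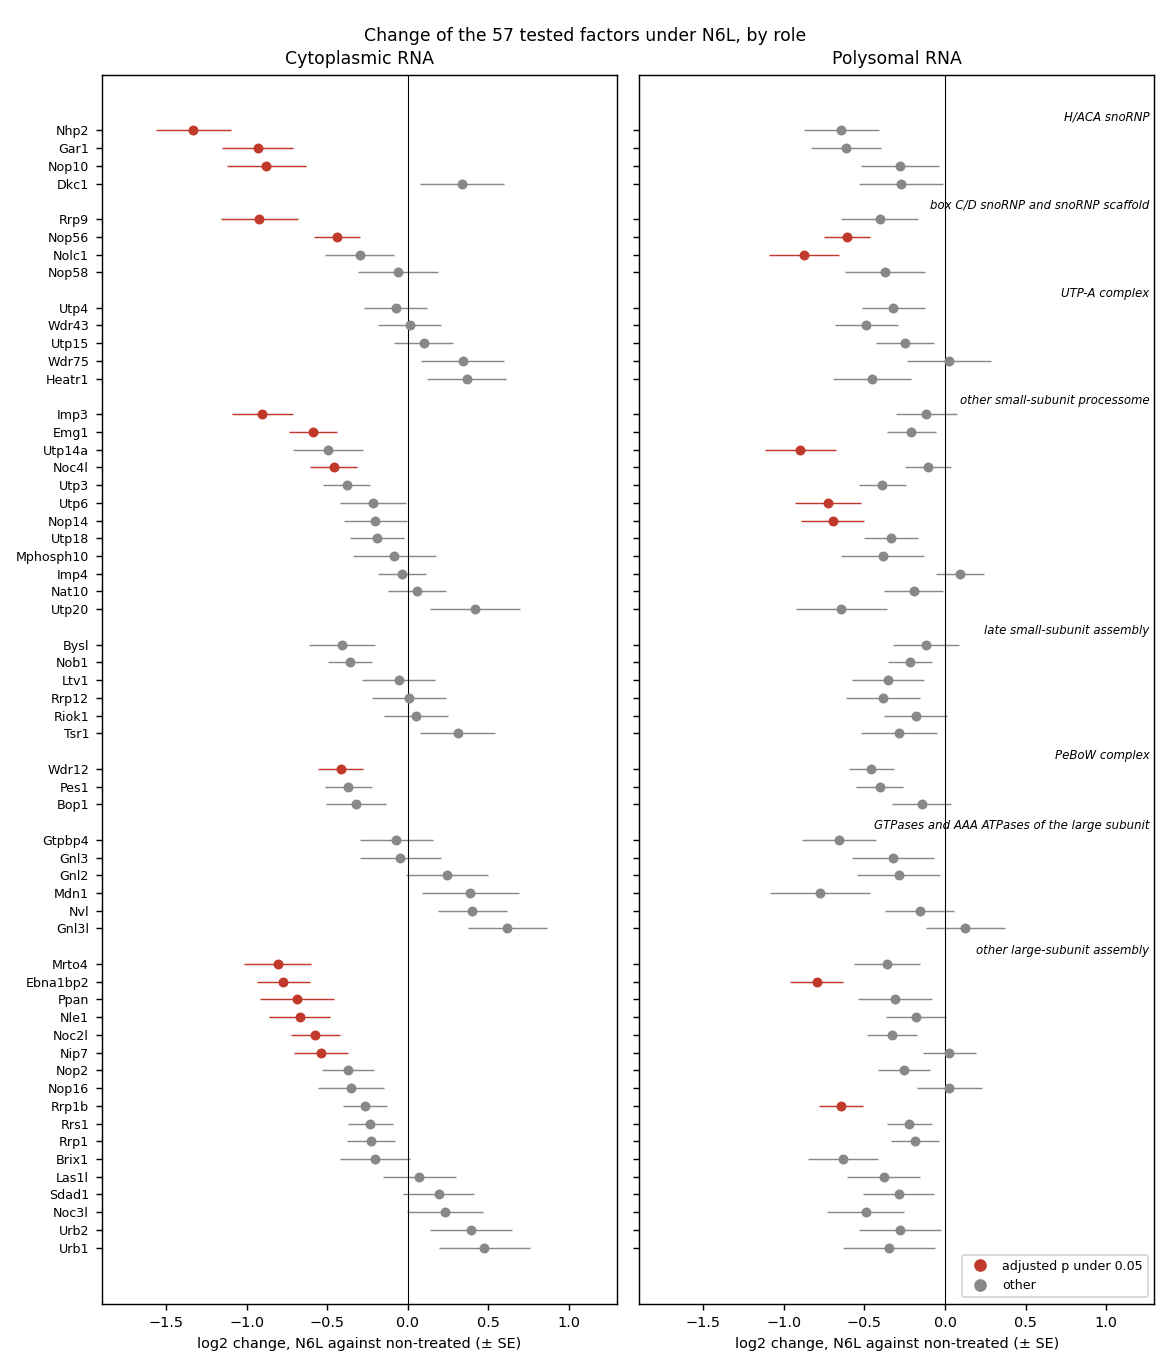
log2 change with N6L (x axis, points with SE bars) of the 57 tested factors in cytoplasmic RNA (left) and polysomal RNA (right), in the classes named at the right; red points have an adjusted p under 0.05. The 15 called in the cytoplasm and the 7 called in polysomes all lie below 0, and 52 of 57 points lie below 0 in polysomes.

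The second comparison asked the same of the polysomal RNA. With N6L, 7 members were lower and 0 higher (edgeR quasi-likelihood test), or 12.3% and 0.0%, beside 3.66% and 6.01% of all genes. The median log2 change was -0.33, beside 0.00 over all genes, and 52 members were below 0. The groups did not overlap for 15 members, all lower, which is 26.3%, beside 11.9% lower and 13.7% higher over all genes.

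Utp14a, a processome protein that works with a helicase, had the largest fall. It was at 103, 107 and 91.8 CPM in NT and at 76.9, 50.2 and 35.0 CPM in N6L polysomes, a log2 change of -0.90 ± 0.22 (edgeR adjusted p = 0.0230). Nolc1 was at 291, 324 and 315 CPM in NT and at 246, 143 and 118 CPM in N6L polysomes (-0.88 ± 0.22). In both, N6L culture 1 lay nearest to the NT cultures and culture 3 farthest.

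Ebna1bp2 (chr4:118620799-118627776), a large-subunit assembly scaffold, was at 290, 277 and 361 CPM in NT and at 206, 153 and 175 CPM in N6L polysomes. Its change was -0.80 ± 0.16 (edgeR adjusted p = 0.0106), beside -0.77 in the cytoplasm. Nop56 was at 222, 232 and 238 CPM in NT and at 181, 137 and 136 CPM in N6L polysomes (-0.61 ± 0.14, edgeR adjusted p = 0.0194). Both were called in each fraction, and their groups did not overlap in either. Of the 16 alternative fits, Nop56 was called in 7 in the cytoplasm and 9 in polysomes. Ebna1bp2 was called in 16 and 13 of them. The remaining polysomal calls were Utp6 (-0.73), Nop14 (-0.70) and Rrp1b (-0.64), whose cytoplasmic changes were -0.21, -0.20 and -0.26.

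The H/ACA mRNAs did not pass in polysomes. Nhp2 was at 320, 279 and 480 CPM in NT and at 187, 216 and 287 CPM in N6L polysomes (-0.64 ± 0.23, edgeR adjusted p = 0.0915), Gar1 at 141, 125 and 196 against 95.8, 88.9 and 117 CPM (-0.61), and Nop10 at 168, 160 and 285 against 148, 171 and 186 CPM (-0.28). Dkc1 was at 66.7, 66.0 and 75.9 CPM in NT and at 84.7, 56.4 and 31.5 CPM in N6L polysomes. Its N6L values thus ranged from above to below all NT values (-0.27 ± 0.26). Nop58 was at 220, 188 and 242 CPM in NT and at 212, 199 and 90.8 CPM in N6L polysomes, so that N6L cultures 1 and 2 lay within the NT range and culture 3 below it.

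In the PeBoW complex Wdr12 was at 101, 85.2 and 97.8 CPM in NT and at 76.7, 70.8 and 59.2 CPM in N6L polysomes (-0.46, edgeR adjusted p = 0.0535). Pes1 was at 149, 181 and 156 CPM against 143, 109 and 116 CPM (-0.40). The groups did not overlap for either, yet neither passed. Bop1 was at 125, 165 and 179 CPM against 145, 124 and 156 CPM, with overlap.

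The highest polysomal values were those of Gnl3l (0.13), Imp4 (0.09) and Nop16 (0.03), each smaller than its SE. Gnl3l was at 61.1, 65.1 and 37.6 CPM in NT and at 70.9, 64.9 and 42.9 CPM in N6L polysomes. Imp4 was at 112, 125 and 138 against 124, 123 and 153 CPM, and Nop16 at 65.9, 76.6 and 93.6 against 67.4, 69.9 and 104 CPM. The groups overlapped for all 3.

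The polysomal count depended on which cultures and groups entered the fit. It was 0 without NT culture 1, 0 without N6L culture 2, 2 without NT culture 2, 1 without NT culture 4 and 19 without N6L culture 1, and it was 0 when only the 6 polysomal libraries were fitted, with 13 members at an unadjusted p under 0.05, while DESeq2 called 13. Ebna1bp2 was called in 13 of the 16 alternative fits and the other 6 in 7 to 11 of them.

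The third comparison set polysomes against cytoplasm within each treatment. The fit had no block for culture, although both fractions of a culture came from a single lysate. The SEs and p-values of these ratios therefore do not use that pairing. A positive log2 ratio means a higher TMM-scaled level in polysomes than in the cytoplasm. In NT cultures 0 members were called by edgeR in either direction, beside 0.0% higher and 0.209% lower over all genes. An unadjusted p under 0.05 (edgeR) was found for 7 of 57 members, beside 1855 of 13889 genes. DESeq2 made 1 call, a lower one for Mphosph10. Without N6L culture 3, which enters through the shared estimate of spread, edgeR called Nop58 and Mphosph10 lower.

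The lowest NT ratios were those of Mphosph10 (-0.67, -1.45 and -0.77 in cultures 1, 2 and 4), Mdn1 (-0.72, -0.79 and -0.57) and Nop58 (-0.43, -0.93 and -0.65). The highest were those of Emg1 (0.28, 0.32 and 0.54), Nhp2 (0.40, 0.29 and 0.42) and Imp4 (0.41, 0.29 and 0.38). Each of these 6 had the same sign in all 3 cultures. The medians of the 57 lay close to 0, at 0.07, 0.05 and 0.02.

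In N6L-treated cultures 14 members were higher in polysomes and 21 lower (edgeR), or 24.6% and 36.8%, beside 18.4% and 20.6% of all genes. With libraries scaled by their size alone the split was 8 higher and 23 lower, and with length and GC offsets 4 higher and 10 lower. Leaving out N6L culture 2 gave 4 higher and 2 lower, and leaving out N6L culture 3 gave 4 and 8. The median ratio of the members was 0.03 in N6L culture 1, -0.40 in culture 2 and -0.58 in culture 3.

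Mdn1 (chr4:32657119-32775217), a very large AAA ATPase that strips assembly factors from the pre-60S particle, had the lowest ratio. Its log2 ratios were -1.17, -2.01 and -2.91 in N6L cultures 1, 2 and 3, all below the NT values above, and the fitted ratio was -1.88 ± 0.31 (edgeR adjusted p = 0.00427). Utp20 followed at -0.65, -1.50 and -2.17 (NT -0.05, -0.36 and -0.27; fitted -1.29 ± 0.28). Mphosph10 was at -0.55, -1.29 and -2.12, which overlapped the NT range, with a fitted ratio of -1.26 ± 0.26. In all 3 the order of the N6L cultures was the same, with culture 1 nearest to 0. With length and GC offsets Mdn1 was at -0.96 and still called, while Utp20 was at -0.48 and no longer called (edgeR adjusted p = 0.0617). Without N6L culture 2 Utp20 was at -1.18 and not called either (edgeR adjusted p = 0.0558).

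The other 18 called lower were Dkc1 (-1.15), Noc3l (-1.10), Gnl2 (-1.01), Nop58 (-0.99), Heatr1, Gnl3, Gtpbp4, Sdad1, Nop14, Urb1, Nolc1, Gnl3l, Wdr75, Brix1, Wdr43, Utp14a, Utp6 and Nvl (-0.58). All 6 GTPases and AAA ATPases of the large subunit were among the 21, as were 3 of the 5 UTP-A proteins. Nvl, an ATPase that works on pre-60S particles, was called higher, at 0.33, under the length and GC offsets. Gtpbp4, a nucleolar GTPase, was at 0.25 there without a call. These offsets take the annotated transcript, of 9392 bases for Nvl and 8783 for Gtpbp4, with coding parts of 2565 and 1902 bases. The highest member under them was Wdr12, at 1.3005 (edgeR adjusted p = 0.0049), against -0.0156 without a call in the main fit. Its transcript has 10012 bases and its coding part 1269. The part of transcript length in these shifts was not tested.

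The 14 called higher were led by Nhp2, at 0.74, 1.10 and 1.3001 in N6L cultures 1, 2 and 3 (fitted 1.07 ± 0.23, edgeR adjusted p = 0.00591). Imp3 was at 0.59, 0.92 and 1.36 (NT 0.14, 0.33 and 0.17; fitted 0.99 ± 0.19). Rrp9 was at 0.33, 0.65 and 1.37 (NT 0.40, 0.41 and 0.25; fitted 0.86 ± 0.24), with overlap only through culture 1. With length and GC offsets none of these 3 was called, at 0.35 for Nhp2 (edgeR adjusted p = 0.0870), 0.18 for Imp3 (edgeR adjusted p = 0.230) and 0.11 for Rrp9 (edgeR adjusted p = 0.509). Rrp9 was also not called without N6L culture 2 or without N6L culture 3. The other 11 were Nop10 (0.85), Nip7 (0.82), Nle1, Emg1, Mrto4, Nop16, Ppan, Imp4, Nob1, Noc4l and Noc2l (0.43).

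Of these 14, 11 were also among the 15 called lower in the N6L cytoplasm, and none of the 21 called lower in polysomes was. The N6L cytoplasmic libraries enter both comparisons, with opposite sign, so that this count is given side by side and not as separate evidence. The same overlap over all genes was not counted. Gar1, Nop56, Wdr12 and Ebna1bp2 were the cytoplasmic calls without a call in this ratio in the main fit.

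**Figure D3:**
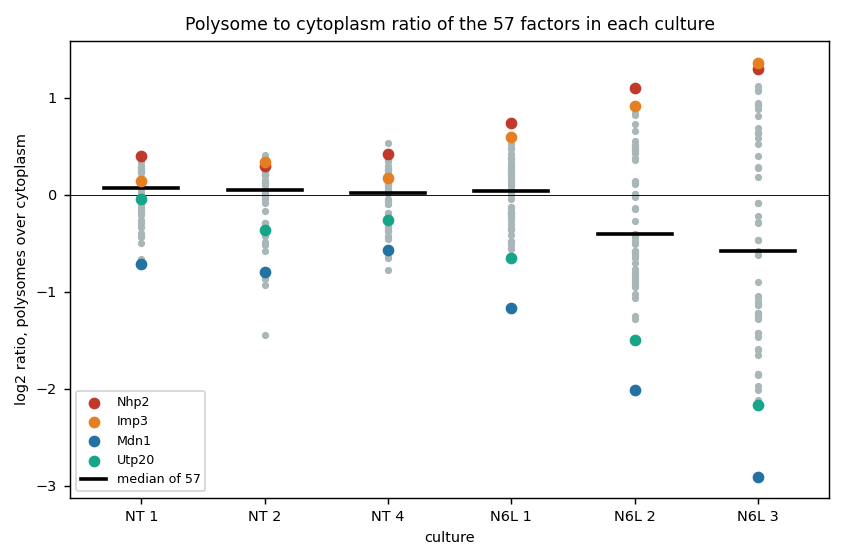
log2 ratio of polysomes to cytoplasm (y axis) for the 57 tested factors (grey points) in each culture (x axis), with 4 mRNAs coloured and the median as a black bar. The members lie within -1.45 and 0.54 in NT cultures and spread to between -2.91 and 1.37 in N6L culture 3.

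The fourth comparison, the translational index, asked whether that ratio differed between N6L-treated and NT cultures, tested as the interaction of fraction and treatment. Like the ratios, the index was fitted without a block, so its SEs and p-values ignore the pairing of fractions. The fit with the culture as replicate block is given in the last section. By edgeR 0 members were called, beside 0.0% higher and 0.0% lower over all genes. An unadjusted p under 0.05 (edgeR) was found for 6 of 57 members, beside 1074 of 13889 genes. DESeq2 called 0, with 8 at an unadjusted p under 0.05, and without a filter on low counts edgeR called 2 lower, Utp20 and Mdn1. In simulated counts the index recovered 46.0% of changed genes, and 15.0% of the genes given a log2 change of 1, which limits what a lack of calls can say.

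The median log2 index of the members was -0.25, beside 0.01 over all genes, and 37 members were below 0. Leaving out N6L culture 1 moved it to -0.48, and leaving out N6L culture 3 to -0.02. The ratios of the 2 treatments did not overlap for 21 members, 8 higher with N6L and 13 lower, or 14.0% and 22.8%, beside 15.3% and 14.4% of all genes. For such a gene the exact two-sided permutation test of 3 cultures against 3 gives p = 0.1, the smallest it allows.

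The lowest index values were those of Mdn1 (-1.17 ± 0.43), Utp20 (-1.06 ± 0.40) and Urb1 (-0.82 ± 0.40). Urb1, a large-subunit scaffold, had ratios of -0.11, 0.12 and 0.12 in NT and of -0.49, -0.96 and -1.11 in N6L cultures. The highest were those of Imp3 (0.79 ± 0.27), Nhp2 (0.69 ± 0.32) and Nop10 (0.60 ± 0.34), and Nop10 had ratios of 0.25, 0.25 and 0.26 in NT and of 0.75, 0.92 and 0.88 in N6L cultures. The treatments did not overlap for any of these 6, and the smallest adjusted p among the members was 0.555 (edgeR).

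The changes varied with the coding length of the mRNAs. Coding lengths ranged from 192 bases for Nop10 to 16767 bases for Mdn1, with a median of 1731 bases. The 28 members below the median held 13 of the 15 cytoplasmic calls and 13 of the 14 higher calls in the N6L ratio. The 29 others held 6 of the 7 polysomal calls and 17 of the 21 lower calls in the N6L ratio. The calls over all genes were not split by coding length. Across the 57 members, Pearson's r between log2 coding length and log2 change was 0.72 in the cytoplasm, -0.27 in polysomes, -0.45 for the NT ratio, -0.72 for the N6L ratio and -0.81 for the index.

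The same sign was seen over the 12123 tested genes with a coding length for 4 of these 5 measures, at 0.45 in the cytoplasm, -0.39 for the NT ratio, -0.61 for the N6L ratio and -0.56 for the index, while polysomes gave 0.05. Within the members the N6L ratio gave r of -0.79, -0.74 and -0.67 in cultures 1, 2 and 3, and the NT ratio -0.55, -0.35 and -0.42 in cultures 1, 2 and 4. These correlations are across genes measured in the same libraries, which are not independent replicates. The offset fits above used the length of the annotated transcript and not that of its coding part. The part of coding length in the calls was not tested.

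**Figure D4:**
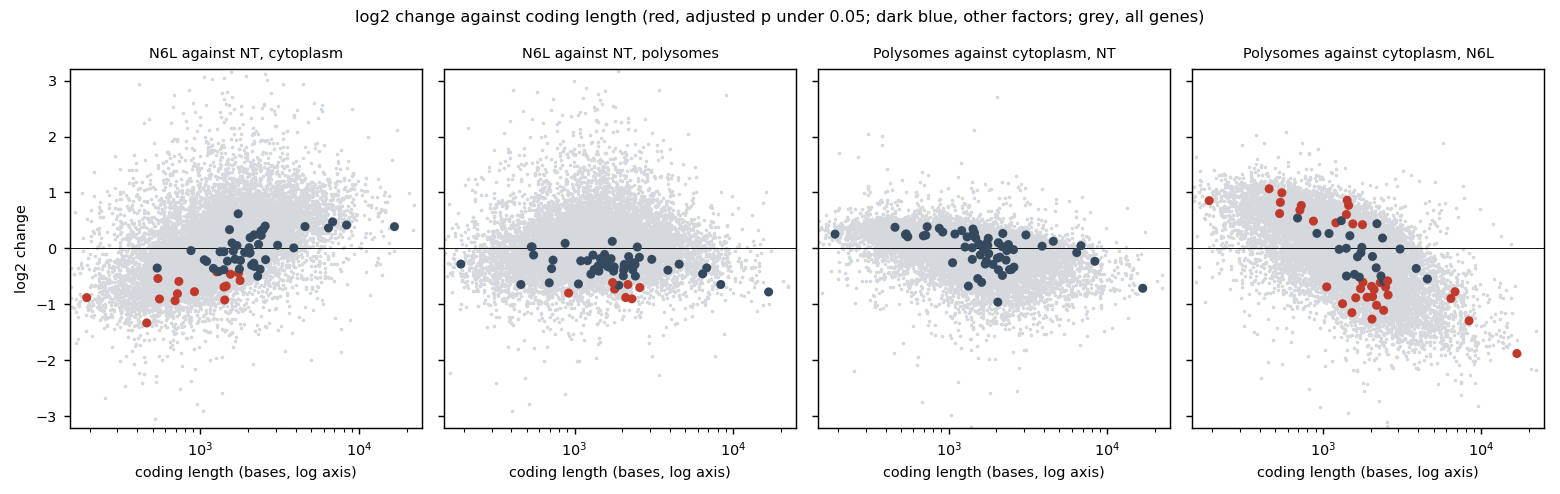
log2 change (y axis) against coding length in bases (x axis, log scale) for 4 comparisons, with all tested genes in grey and the 57 factors in dark blue or, with an adjusted p under 0.05, in red. The red points of the cytoplasm lie mostly at short coding lengths, and in the N6L ratio 19 of the 28 shorter members lie above 0 and 25 of the 29 others below, down to Mdn1 at -1.88.

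Among the 12 members with the promoter E-box, 1 (8.33%) was lower in the cytoplasm, beside 13.8% of all genes, and 0 were called in polysomes, beside 3.66% lower. In the N6L ratio 2 of them (16.7%) were higher and 4 (33.3%) lower, beside 18.4% and 20.6% of all genes. Of the 39 with a window and without the motif, 14 (35.9%) were lower in the cytoplasm, 6 (15.4%) were lower in polysomes, and 12 (30.8%) were higher and 14 (35.9%) lower in the N6L ratio. A difference between members with and without the motif was not tested.

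The other genes of the pathway were taken from a list of 87 further factors, all of which were tested. In the cytoplasm 31 (35.6%) were lower, beside 13.8% of all genes, and 0 higher, led by Wdr74 (-1.49), a large-subunit factor, and Pop5 (-1.27), a protein of RNase MRP, with 11 of the 17 RNase MRP and exosome genes among them. In polysomes 17 (19.5%) were lower, beside 3.66% of all genes, and 0 higher, led by Tcof1 (-1.27), the treacle protein of ribosomal DNA transcription, and Pop1 (-0.98). In the N6L ratio 24 (27.6%) were higher, beside 18.4% of all genes, led by the exosome genes Exosc5 (1.00) and Exosc4 (0.96). There 16 (18.4%) were lower, led by Esf1 (-1.89) and Nol8 (-1.84), a share below the 20.6% of all genes.

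The NT ratio and the index gave 0 calls by edgeR among these 87, with 12 and 5 at an unadjusted p under 0.05. Over all 13889 genes 1855 and 1074 were under that limit. Ncl, which encodes the nucleolin that N6L binds, had a log2 change of -0.11 ± 0.31 in the cytoplasm and of -0.80 ± 0.31 in polysomes, neither past the threshold, and an N6L ratio of -1.30 ± 0.32 (edgeR adjusted p = 0.00837).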

How the data were processed

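Cytoplasmic and polysomal libraries of 3 NT and 3 N6L cultures were deposited as raw counts per gene, which the authors made with STAR and HTSeq and did not normalise. The submitters' processing notes name bcl2fastq 2.18.0.12, HTSeq 0.5.3 and mm10. The annotation release and the strand setting are not given in the sources used. The 4 technical replicates of each library were summed (chi-square per degree of freedom 1.02 to 1.04). For 3 cytoplasmic technical replicates of N6L culture 2 title and description give different culture numbers, and these were left out in an alternative.

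Of 50600 identifiers 50376 were found in GENCODE vM21, which gave symbols, positions, transcript lengths (principal isoform) and coding lengths without the stop codon. Counts were filtered with filterByExpr, scaled by TMM. The quasi-likelihood functions glmQLFit and glmQLFTest (edgeR 4.0.16, R 4.3.3) were run on 4 group means over 12 libraries without a block. The p-values were adjusted by Benjamini-Hochberg over 13889 genes with a limit of 0.05. Log2 ratios per culture used log2 CPM with a prior count of 2. Alternatives were no filter, a minimum of 10 counts per library, RLE factors, scaling by library size alone, DESeq2 1.42.0, technical replicate a alone, only the groups compared, length and GC offsets (mgcv 1.9.3), each culture left out, and replicate blocks. On simulated counts of independent libraries, with 200 genes changed by 1 or 2 on the log2 scale, the fit recovered 71.0% (cytoplasm) and 70.5% (polysomes) of them. The common biological coefficient of variation was 0.197. The p-values of N6L against NT within a fraction measure the spread between cultures of 1 line. For the ratios and the index the main fit took the fractions of a culture as independent libraries. Those p-values do not measure how the ratio varied between cultures.

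Cytoplasm and polysomes of a culture are paired, since a single lysate gave both. The correlation of their deviations from group means was 0.364, 0.452 and 0.645 (NT cultures 1, 2 and 4) and 0.0368, 0.199 and 0.230 (N6L cultures 1, 2 and 3). The members and lists were chosen with earlier results of these data known. Named with values per culture were the H/ACA genes, Nop56, Nop58, the PeBoW genes and the 3 largest increases and decreases of each comparison; Rrp9, Nolc1 and Utp20 entered by the last rule.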

Additional observations from a re-analysis of the deposited data

Results flagged for a closer look

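Urb2, a large-subunit assembly factor, is the single member whose log2 ratio of polysomes to cytoplasm was above 0 in all NT cultures (0.08, 0.24 and 0.05) and below 0 in all N6L cultures (-0.34, -0.43 and -1.07). Its log2 index was -0.67 ± 0.36 (edgeR adjusted p = 0.555), so the difference between the treatments did not pass the test of the difference.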

How the results depend on the processing

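The cytoplasmic count of 15 was 25 when only the cytoplasmic libraries were fitted and 4 to 16 with a culture left out. The polysomal count of 7 was 4 with library size alone, 13 without a filter, 13 by DESeq2, 0 with only the polysomal libraries, 21 with length and GC offsets, 13 at a limit of 0.1, 2 with culture number as replicate block and 0 to 19 with a culture left out. The NT ratio, with 0 calls, gave 3 without a filter, 1 by DESeq2, 1 with the replicate block and length and GC offset, and 0 to 2 with a culture left out. The N6L ratio, with 35 calls, gave 14 with length and GC offsets, 6 to 42 with a culture left out, and 45 with the culture as replicate block, which pairs the fractions. The index gave 2 calls without a filter and 0 with any culture left out. With the replicate block it gave 0, and 20 members had an unadjusted p under 0.05. The sample titles do not say whether NT and N6L cultures of the same number were handled together, and this was not tested. The deviations of same-numbered cultures (1 and 2) correlated by 0.228 and 0.0455 in the cytoplasm and by 0.296 and 0.00760 in polysomes. Library size alone moved the median of all genes in the cytoplasm from 0.04 to 0.19 and that of the members from -0.20 to -0.06, so the members stayed lower relative to it.

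Of 1433 single-gene values under alternatives, 1156 kept direction and call, 223 lost the call, 27 gained one and 27 changed sign. Among these 27, the sign changed with length and GC offsets for Utp20 (-0.0977) and Nop58 (0.0887) in the cytoplasm. In the N6L ratio it changed with these offsets, without and with the replicate block, for Gtpbp4 (0.25 and 0.25) and Nvl (0.33 and 0.33). There it also changed for Noc4l (-0.031 and -0.0343), Nob1 (-0.0261 and -0.0357), Ppan (-0.10 and -0.10) and Mrto4 (-0.0519 and -0.0557). With the replicate block it changed in polysomes for Nop16 (-0.0503), Dkc1 (0.0595) and Nop58 (0.0126), and in the cytoplasm for Nop58 (0.0208), which was also at 0.0888 with library size alone. With a culture left out, polysomal values that crossed 0 ranged from -0.0661 to 0.3162 for Gnl3l, -0.018 to 0.1851 for Imp4, -0.1975 to 0.1868 for Nop16, -0.6606 to 0.0221 for Dkc1 and -0.4289 to 0.0499 for Nop10, and the cytoplasmic value of Nop58 ranged from -0.1999 to 0.022. The cause of these changes was not tested.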
